A study of Homo sapiens with 12 samples.

Results

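The comparison described here is between a pair of cultured human B-lineage lines, Namalwa and Reh, in RNA-seq of untreated cells. Namalwa is a Burkitt's lymphoma line and Reh a Pro-B lymphoblastic leukaemia line, and in the study they stood as the non-Hodgkin controls of classical Hodgkin lymphoma (cHL) lines. The members are the 4 untreated libraries of these lines, 2 of Namalwa and 2 of Reh, chosen by cell line and treatment out of the 12 libraries of the series. The other 8 libraries are 2 each of the cHL lines KM-H2, L1236 and L428 and 2 of Reh treated with phorbol myristate acetate (PMA) at 2 ng/ml. Both control lines grew in RPMI medium with serum, whereas the cHL lines grew in IMDM. Each line is 1 established culture, so what follows compares these lines and not Burkitt's lymphoma with B-cell precursor leukaemia in general. The labels do not say whether the duplicate libraries came from separate cultures. The p-values measure only the spread between duplicates, estimated over all 12 libraries, and this spread may be technical.

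B cells begin in the bone marrow as precursors that cut and join their immunoglobulin genes with the RAG proteins and carry a surrogate light chain in place of a finished one. Mature B cells leave with a complete receptor, and after meeting antigen some enter the germinal centre, where the antibody genes are mutated before cells become memory B cells or antibody-secreting plasma cells. Burkitt's lymphoma is known as a tumour of germinal centre B cells in which MYC is joined to an immunoglobulin locus, and Namalwa carries Epstein-Barr virus. Reh carries the ETV6-RUNX1 fusion of childhood B-cell precursor leukaemia.

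Expression was given for 26210 genes as FPKM, a count of fragments scaled for transcript length and library size. How libraries were scaled to each other is not given in the sources used here. The depth of each library is unknown, since FPKM keeps no read counts. The FPKM values summed to 671463 and 995922 in the Namalwa libraries and to 739272 and 864944 in the Reh libraries, with 25.7% to 35.8% of each sum in small RNA genes. Across tested genes the log2 values of the Namalwa pair correlated with Pearson's r = 0.972 and those of the Reh pair with r = 0.981, while pairs of libraries from different lines gave 0.793 to 0.821. Genes are not independent replicates, so these values are descriptions. An exact 0 can be a failed estimate in these files: 11 of 11 genes checked in the region shared by the X and Y chromosomes were listed at 0 in all 12 libraries. A gene at 0 in both libraries of a line is therefore said to be at 0 or listed at 0. Its FPKM in the other line and, for many such genes, its adjusted p are given without a fold change or difference.

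Namalwa and Reh differed in the expression of 2843 of 12135 tested genes, 23.4%. Of these, 1136 (9.36% of those tested) were higher in Namalwa and 1707 (14.1%) were higher in Reh. A gene was tested when it reached 1 FPKM in at least 2 of the 4 libraries, and it was called when limma gave an adjusted p under 0.05 and the difference was at least 1 on the log2(FPKM + 1) scale. This scale understates the change of genes with low values, and all differences below are on it, as Namalwa minus Reh with the standard error (SE). The median difference over all tested genes was 0.01, with quartiles of -0.52 and 0.46. Differences of at least 3 were found in 186 genes higher in Namalwa and 278 higher in Reh. In many calls the other line was near 0: both Reh libraries lay under 1 FPKM for 485 of the genes higher in Namalwa, and both Namalwa libraries for 902 of the genes higher in Reh. The libraries of the lines did not overlap for 8111 tested genes (66.84%), so a lack of overlap alone was common. Fewer expressing cells and less RNA per cell cannot be told apart in bulk libraries.

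**Figure D1:**
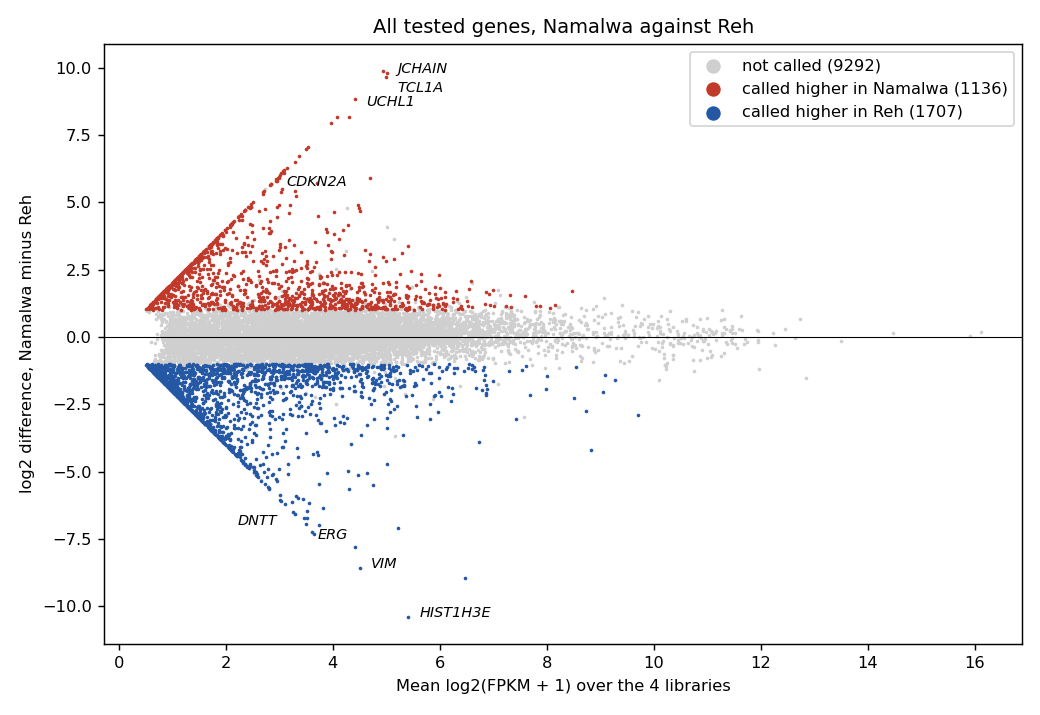
Difference between Namalwa and Reh (y axis, log2 scale) against the mean log2(FPKM + 1) over the 4 libraries (x axis) for the 12135 tested genes. Red points are the 1136 genes called higher in Namalwa, blue points the 1707 called higher in Reh and grey points were not called, and the straight edges on the left are genes near 0 in 1 line.

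Both lines expressed the genes that define the B lineage. PAX5, the transcription factor that holds B-cell identity, was 77.8 and 56.6 FPKM in Namalwa and 64.1 and 52.5 in Reh, a difference of 0.19 ± 0.35, adjusted p = 0.75. The receptor subunit CD79A was 168 and 287 FPKM in Namalwa and 336 and 429 in Reh, and its partner CD79B was 591 and 889 and 394 and 414. Neither subunit was called, with differences of -0.78 ± 0.48, adjusted p = 0.265 for CD79A and 0.84 ± 0.34, adjusted p = 0.0829 for CD79B. The B lineage was thus visible in both lines, and an adjusted p over the threshold does not show that levels were equal. MS4A1, which encodes the mature B-cell antigen CD20, was 5.98 and 14.6 FPKM in Namalwa and 0.161 and 0.229 in Reh (3.13 ± 0.30, adjusted p = 6.59e-06). Markers of other blood lineages were low in Namalwa, where 7 T and NK cell genes summed to 0 to 0.35 FPKM, 7 myeloid genes to 0.27 to 0.54 and 3 erythroid genes to 0. In Reh the same sums were 2.94 to 3.25, 28.5 to 34.9 and 0 to 0.13. Most of the myeloid sum of Reh was MPO, the myeloperoxidase of granulocyte precursors, at 24.8 and 32 FPKM with Namalwa listed at 0 (adjusted p = 0.000318), while CD14 was at 0.139 and 0, CSF1R at 0.285 and 0.202 and LYZ at 0.759 and 0.389 FPKM in Reh. ITGAM, an integrin of myeloid cells, was 2.56 and 2.26 FPKM in Reh and 0.0445 and 0.0505 in Namalwa (-1.70 ± 0.33, adjusted p = 0.00192), and CD33, a myeloid lectin, was 2.22 and 1.4 FPKM in Reh with Namalwa listed at 0 (adjusted p = 0.000904). Of the 20 myeloid and erythroid markers listed 4 were tested, and 3 of these, MPO, ITGAM and CD33, were higher in Reh (75%, against 14.1% of all tested genes). All 3 passed the filter through Reh alone, so this share is no support for a difference in these markers as a group. The CD33 call was lost after quantile normalization, and with a filter of 5 FPKM 1 of these markers was called. The part of these values in other differences was not tested.

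The genes of B-cell precursors were higher in Reh. Of 34 such genes in the list 26 were tested, and 20 of them were higher in Reh and 3 in Namalwa, with a median difference of -2.09 against 0.01 over all tested genes. The shares called over all tested genes were 14.1% higher in Reh and 9.36% higher in Namalwa. DNTT, the terminal transferase that adds bases at immunoglobulin joins, was 87.9 and 103 FPKM in Reh and listed at 0 in both Namalwa libraries (adjusted p = 1.01e-08). The recombinase genes were not confined to Reh. RAG1 was 435 and 384 FPKM in Reh and still 35.7 and 19.2 in Namalwa (-3.91 ± 0.36, adjusted p = 5.11e-06), and RAG2 was 161 and 152 and 40.8 and 30.8 (-2.11 ± 0.28, adjusted p = 0.000105). Both lines thus held RAG1 and RAG2 well above 1 FPKM, with Reh higher for each. The cHL lines lay between 0.0412 and 0.488 FPKM for RAG1 and between 0 and 0.0656 for RAG2.

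The surrogate light chain genes did not move together. IGLL1, its constant-like part, was 513 and 472 FPKM in Reh and 48 and 70.2 in Namalwa (-3.06 ± 0.29, adjusted p = 6.31e-06), while VPREB1, its variable-like part, was 11.4 and 7.89 FPKM in Namalwa and listed at 0 in both Reh libraries (adjusted p = 8.46e-08). IGLL1 shares sequence with IGLL5 and the lambda constant genes, so its FPKM are uncertain. VPREB1 was also listed at 0 in both PMA-treated Reh libraries. Of 5 tested progenitor receptors 4 were higher in Reh (80%, against 14.1% of all tested genes). FLT3, the receptor tyrosine kinase of early progenitors, was 54.6 and 43 FPKM with Namalwa at 0 (adjusted p = 6.24e-09), and IL7R, the receptor for interleukin 7, was 146 and 183 against 6.11 and 4.54 (-4.71 ± 0.25, adjusted p = 6.66e-08). CD34, the stem and progenitor antigen, was listed at 0 in both lines. Among regulators, ERG, an ETS factor of blood stem cells, was 145 and 108 FPKM in Reh against 0.0447 and 0 in Namalwa (-6.95 ± 0.21, adjusted p = 1.71e-09). In this list 11 of 15 tested transcription and chromatin regulators were higher in Reh (73.3%, against 14.1%). The exceptions in the list besides VPREB1 were CD9, a tetraspanin, at 17.7 and 20.5 FPKM in Namalwa and 3.76 and 2.94 in Reh, and SMAD1, a transducer of BMP signals, at 40.4 and 34.9 and 9.72 and 8.38. The calls of VPREB3 and MYB were each lost in at least 2 of the 4 fits that left out 1 library.

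**Figure D2:**
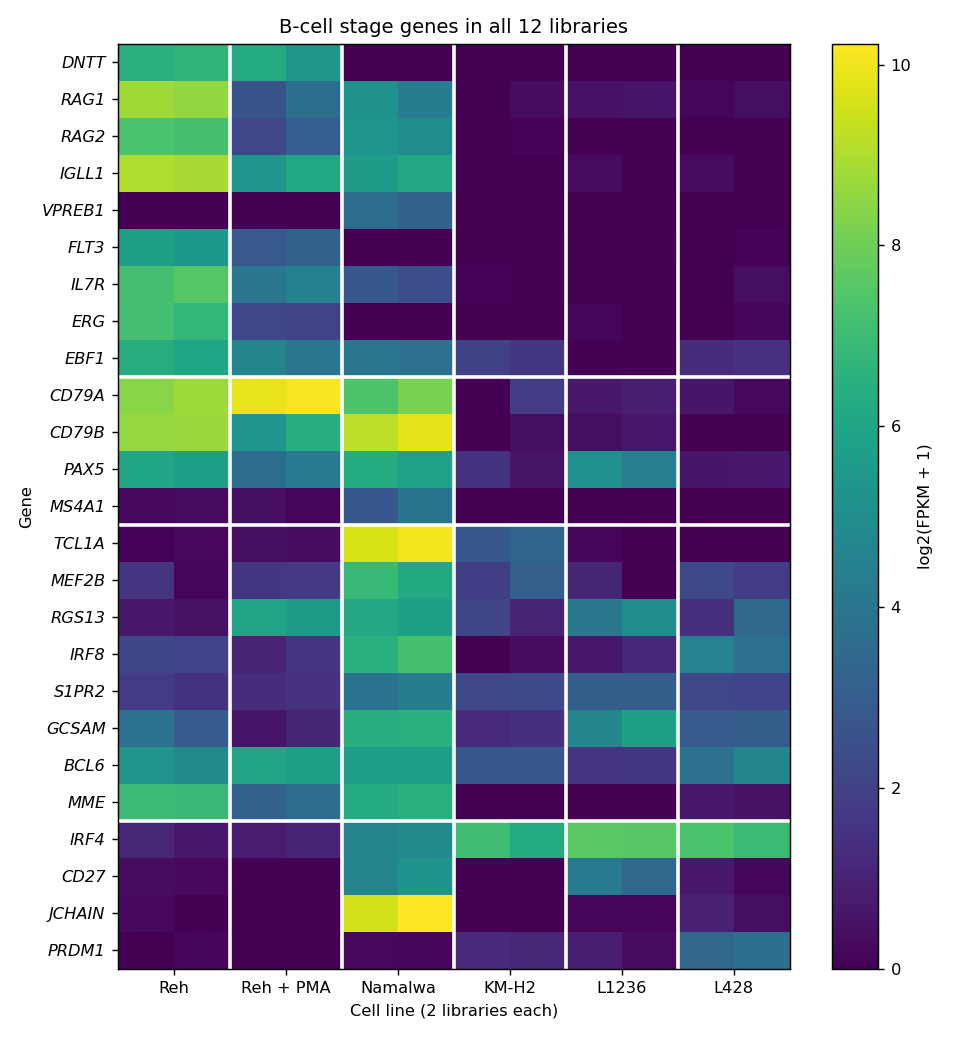
Log2(FPKM + 1), as colour, of 25 genes of B-cell stages (rows: precursor with EBF1, other B-lineage, germinal centre, memory and plasma cell from top to bottom) in all 12 libraries (columns, 2 per line). DNTT, RAG1, RAG2, IGLL1, FLT3 and IL7R are brightest in Reh and TCL1A and JCHAIN in Namalwa, while CD79A, CD79B and PAX5 are bright in both.

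Of 19 tested genes known from ETV6-RUNX1 leukaemia 13 (68.4%, against 14.1% of all tested genes) were higher in Reh and 1 (5.3%, against 9.36%) in Namalwa (median difference -1.68). PCLO, a presynaptic scaffold protein, was 130.2 and 124 FPKM in Reh and 0.841 and 0.334 in Namalwa (-6.35 ± 0.26, adjusted p = 1.1e-08). BIRC7, an inhibitor of apoptosis, was 20.3 and 32.4 FPKM in Reh (adjusted p = 5e-08) and CLIC5, a chloride channel protein, was 14.7 and 15.7 (adjusted p = 2.35e-07). Both were listed at 0 in Namalwa. KCNN1, a potassium channel, was 32.7 and 34.3 FPKM in Reh and 0.983 and 0.512 in Namalwa. With the filter raised to 5 FPKM, 8 members were called higher in Reh. The erythropoietin receptor gene EPOR, known to be active in this leukaemia, was 7.79 and 6.19 FPKM in Reh and 1.3 and 1.68 in Namalwa (-1.68 ± 0.43, adjusted p = 0.0113), and its call was lost without the lower-sum library of either line.

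The fusion partners themselves differed in opposite directions. ETV6, whose gene is split by the translocation, was 11.4 and 5.63 FPKM in Namalwa and 0.93 and 0.621 in Reh (2.36 ± 0.45, adjusted p = 0.00162). RUNX1 was 26.1 and 15.4 FPKM in Reh and 8.05 and 3.28 in Namalwa (-1.76 ± 0.40, adjusted p = 0.00513). Gene-level FPKM cannot separate fusion from normal transcripts. The RUNX1 call was lost without the Namalwa library with the higher summed FPKM (difference -1.22, adjusted p = 0.0614) and without the Reh library with the lower sum (-1.40, adjusted p = 0.0668). RUNX3, the family member common in mature lymphocytes, was 6.01 and 3.53 FPKM in Namalwa and 0.0746 and 0 in Reh (2.44 ± 0.32, adjusted p = 9.74e-05).

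Signalling genes of the B-cell receptor were more often higher in Namalwa than in Reh. Of 44 tested genes 23 (52.3%, against 9.36% of all tested genes) were higher in Namalwa and 6 (13.6%, against 14.1%) in Reh, with a median difference of 1.10. The group was uneven by role: 12 of 16 coreceptors and 11 of 26 kinases and adaptors were higher in Namalwa, and neither of the 2 receptor subunits was called. FCRLA, an Fc receptor-like protein of mature B cells, was 153 and 254 FPKM in Namalwa and 2.71 and 2 in Reh (5.90 ± 0.29, adjusted p = 4.08e-08). RASGRP3, a Ras activator, was 23.3 and 22 FPKM in Namalwa against 0.332 and 0.224 in Reh (4.21 ± 0.45, adjusted p = 2.07e-05), and DAPP1, an adaptor that binds membrane lipids, was 15.9 and 18.3 against 0.0369 and 0. The kinases SYK (91.1 and 120.2 FPKM in Namalwa, 43.1 and 44.8 in Reh), BLK (66.8 and 68.6 and 9.32 and 11.1) and LYN (24.8 and 19 and 3.89 and 2.12) were higher in Namalwa, whereas BTK, at 47 and 57 and 39.8 and 47.2, was not called.

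The 6 genes of this list that were higher in Reh included inhibitors and adaptors. LAIR1, an inhibitory receptor for collagen, was 41.4 and 42.1 FPKM in Reh and 0.439 and 0.0453 in Namalwa (-5.12 ± 0.35, adjusted p = 4.6e-07). VAV1, a nucleotide exchange factor, was 67.1 and 88.9 against 11.4 and 16.9 (-2.39 ± 0.32, adjusted p = 0.000111), PIK3R1, the regulatory subunit of PI3-kinase, was 27.5 and 26.9 against 7.27 and 6.14 and PTPN6, the phosphatase SHP-1, was 15.7 and 12.6 against 4.81 and 3.83. The adaptor BLNK, which the precursor receptor needs, was 67.4 and 63 FPKM in Reh and 31.7 and 23.6 in Namalwa (-1.22 ± 0.25, adjusted p = 0.00241). CD24, the remaining member, was called at 504 and 589.8 against 198 and 320.2 FPKM, and that call was lost when any of 3 libraries was left out.

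Of 49 tested germinal centre genes 23 (46.9%, against 9.36% of all tested genes) were higher in Namalwa and 2 (4.1%, against 14.1%) in Reh, while 24 were not called (median difference 0.95). TCL1A, a coactivator of the kinase AKT, was 793 and 1027 FPKM in Namalwa and 0.0836 and 0.171 in Reh (9.65 ± 0.24, adjusted p = 4.41e-10). MEF2B, a transcription factor upstream of BCL6, was 117 and 73.8 FPKM against 1.94 and 0.0893 (5.71 ± 0.53, adjusted p = 9.77e-06). RGS13, a brake on chemokine signalling in germinal centre cells, was 71.2 and 55.9 against 0.605 and 0.387 (5.42 ± 0.61, adjusted p = 8.75e-05). It was 61.4 and 46.7 FPKM in the PMA-treated Reh libraries. IRF8, an interferon regulatory factor of germinal centre B cells, was 89.1 and 152 FPKM in Namalwa and 3.36 and 3.16 in Reh, and S1PR2, which keeps B cells in the germinal centre, was 13.7 and 19.2 and 2.51 and 1.82.

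The classic surface and transcriptional markers of the germinal centre did not all separate the lines. BCL6, its master repressor, was 51.5 and 51.1 FPKM in Namalwa and 39.4 and 28.2 in Reh (0.61 ± 0.28, adjusted p = 0.124). MME, which encodes CD10, was 76.7 and 88.3 and 123 and 118 (-0.55 ± 0.23, adjusted p = 0.093), and CD38 was 44.9 and 33.5 and 51.6 and 48.5 (-0.36 ± 0.25, adjusted p = 0.319). CD10 and CD38 are found on B-cell precursors as well. Of the 12 tested transcription factors of the list 6 were higher in Namalwa (50%, against 9.36% of all tested genes). The 2 members higher in Reh were DENND3, an exchange factor for Rab proteins, at 11.3 and 9.13 FPKM against 1.78 and 2.45 (-1.85 ± 0.25, adjusted p = 0.000115), and MARCKSL1, an actin-binding protein, at 100.4 and 127 against 46.7 and 55.4 (-1.13 ± 0.23, adjusted p = 0.00273). The MARCKSL1 difference was -0.97 without the Reh library with the higher sum, under the size required for a call.

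Among plasma cell and memory B-cell genes 7 of 16 tested (43.8%, against 9.36% of all tested genes) were higher in Namalwa and 2 (12.5%, against 14.1%) in Reh (median difference 0.93). JCHAIN, the joining chain of secreted IgM and IgA, was 769 and 1198 FPKM in Namalwa and 0.165 and 0 in Reh (9.80 ± 0.27, adjusted p = 9.4e-10). CD27, a marker of memory B cells, was 23.6 and 38 against 0.267 and 0.183 (4.66 ± 0.31, adjusted p = 3.87e-07), and TNFRSF17, the plasma cell receptor BCMA, was 7.71 and 17 against 0.373 and 0.257 (3.25 ± 0.32, adjusted p = 8.64e-06). IRF4, a factor needed for plasma cells, was 23.7 and 29 FPKM in Namalwa and 1.17 and 0.6 in Reh (3.87 ± 0.29, adjusted p = 1e-06), both below the 74.8 to 194 FPKM of the cHL lines. PRDM1, the repressor that drives plasma cell development, stayed under 1 FPKM in all 4 libraries and was not tested. SDC1, the plasma cell antigen CD138, was 1.82 and 3.99 FPKM in Reh and 0 and 0.0764 in Namalwa (-1.85 ± 0.31, adjusted p = 0.000666), the reverse of CD27 and TNFRSF17. ELL2, an elongation factor for secretory transcripts, was 4.46 and 4.26 against 1.52 and 1.36 (-1.14 ± 0.26, adjusted p = 0.00583). SDC1 and ELL2 did not reach a filter of 5 FPKM.

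Of 28 tested B-lineage and haematopoietic transcription factors 7 were higher in Namalwa (25%, against 9.36% of all tested genes) and 5 (17.9%, against 14.1%) in Reh (median difference 0.22). IKZF3, the Ikaros family member of mature B cells, was 31.3 and 25.9 FPKM in Namalwa and 0.0461 and 0.0233 in Reh (4.83 ± 0.32, adjusted p = 3.23e-07). POU2F2, the octamer factor OCT2, was 14.6 and 6.42 against 0.356 and 0.188 (3.08 ± 0.30, adjusted p = 7.86e-06) and ETS1 was 117 and 89.5 against 21.4 and 14.6 (2.46 ± 0.39, adjusted p = 0.000445). In the other direction EBF1, which specifies the B lineage, was 82.9 and 66.2 FPKM in Reh and 15.3 and 13.1 in Namalwa (-2.31 ± 0.26, adjusted p = 3.13e-05), and NFIX, a nuclear factor of progenitors, was 7.31 and 7.03 against 0.0378 and 0.043 (-2.97 ± 0.28, adjusted p = 7.31e-06). BCL11B, the T-lineage factor, was 2.05 and 1.52 FPKM in Reh and listed at 0 in Namalwa and its call was lost after quantile normalization. Without the Namalwa library with the higher sum or the Reh library with the lower sum 3 members of the list were higher in Reh, and with a filter of 5 FPKM 4 were higher in Namalwa and 3 in Reh. The E-protein inhibitors and partners gave 2 genes higher in Namalwa (28.6%) and 1 in Reh (14.3%) of 7 tested, against 9.36% and 14.1% of all tested genes. ID1, an inhibitor of E-proteins, was 9.25 and 3.95 FPKM in Namalwa and 1.44 and 0.297 in Reh (2.00 ± 0.43, adjusted p = 0.00409), and without the Reh library with the higher sum its call was lost (adjusted p = 0.0532), leaving 1 gene higher in Namalwa. With a filter of 5 FPKM none was. HES1, a repressor downstream of NOTCH, was 3.01 and 5.32 FPKM in Namalwa and listed at 0 in Reh (adjusted p = 0.00149). LYL1, a basic helix-loop-helix oncogene, was 83 and 78.8 FPKM in Reh and 4.16 and 7.18 in Namalwa (-3.66 ± 0.25, adjusted p = 3.89e-07). ID3, a gene often mutated in Burkitt's lymphoma, was 274 and 388 FPKM in Namalwa and 154 and 182 in Reh and was not called (0.96 ± 0.36, adjusted p = 0.0671).

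MYC, the gene that the Burkitt translocation activates, was not called. It was 148 and 123 FPKM in Namalwa and 147 and 140.1 in Reh (-0.09 ± 0.39, adjusted p = 0.908), all above the 14 to 84.1 FPKM of the cHL lines. Of 50 tested genes of the MYC network 7 were higher in Namalwa (14%, against 9.36% of all tested genes) and 1 in Reh (2%, against 14.1%), and the median difference was 0.53. SRM, the spermidine synthase, was 110.2 and 94.7 FPKM in Namalwa and 23.1 and 23.3 in Reh (2.09 ± 0.40, adjusted p = 0.00182). PUS7, a pseudouridine synthase, was 44 and 78 against 15.7 and 23.4 (1.56 ± 0.30, adjusted p = 0.00171), and POLR3G, a subunit of RNA polymerase III, was 14.2 and 18.9 against 5.08 and 5.08 (1.52 ± 0.30, adjusted p = 0.00199). RRS1, a ribosome assembly factor, was 15.6 and 9 against 1.86 and 2.31 (2.07 ± 0.48, adjusted p = 0.00697), a call lost without the lower-sum library of either line (adjusted p = 0.067 and 0.0518). With the spread taken from the 4 libraries alone 11 members were called higher in Namalwa. Of the alternatives 2 moved this count by more than 1.5 times, and the highest count was 13. TERT, the telomerase catalytic subunit, was 22.9 and 12.9 FPKM in Reh and 6.34 and 6.86 in Namalwa (-1.26 ± 0.31, adjusted p = 0.00787), and its call was lost without the Reh library with the lower sum (adjusted p = 0.0971).

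Cell cycle genes were called about as often as genes in general, with 3 higher in Namalwa (11.5%, against 9.36% of all tested genes) and 4 in Reh (15.4%, against 14.1%) of 26 tested, and none of 8 proliferation markers was called. CDK6, a G1 kinase, was 163 and 171 FPKM in Reh and 33.4 and 29.6 in Namalwa (-2.37 ± 0.33, adjusted p = 0.000147). The kinase inhibitors went both ways. CDKN2A, which encodes p16 and p14ARF, was 58.2 and 57.1 FPKM in Namalwa and listed at 0 in both Reh libraries (adjusted p = 4.42e-08). CDKN1C, or p57, was 3.96 and 2.19 FPKM in Reh and 0.928 and 0.439 in Namalwa (-1.26 ± 0.24, adjusted p = 0.00169), with a difference of -0.94 without the Reh library with the lower sum. The calls of CDKN2C, CDKN2D and CDKN1A were each lost in at least 2 of the 4 leave-one-out fits, and 2 members were higher in Reh without the lower-sum library of either line.

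CDKN2A lay in a run of neighbouring genes that were all at or near 0 in Reh. These genes are on the short arm of chromosome 9 in hg19 coordinates, and they were looked at after the CDKN2A value was seen. In order along the chromosome, MLLT3 (chr9:20341667-20622498) was 4.2 and 6.07 FPKM in Namalwa, FOCAD (chr9:20658308-20995954) was 13.1 and 18, HACD4 (chr9:20999508-21031639) was 1.39 and 2.8 and KLHL9 (chr9:21329664-21335403) was 9.09 and 4.42, and each was listed at 0 in both Reh libraries. MTAP, the methylthioadenosine phosphorylase gene (chr9:21802635-21937650), was 27 and 30.1 FPKM in Namalwa and 0.0429 and 0.0217 in Reh (4.84 ± 0.20, adjusted p = 1.28e-08). CDKN2A itself spans chr9:21967751-21995300 on the minus strand, and the antisense gene CDKN2B-AS1 beside it was 2.94 and 2.03 FPKM in Namalwa and 0 and 0.0845 in Reh. All 7 of these genes were called higher in Namalwa, with adjusted p from 1.28e-08 for MTAP to 0.00406 for HACD4. CDKN2B did not reach the filter. Further towards the chromosome end the tested genes were above 1 FPKM in both Reh libraries. ACER2 (chr9:19409007-19452503), a ceramidase, was 2.59 and 4.06 FPKM in Reh and 0.57 and 0.648 in Namalwa (-1.40 ± 0.25, adjusted p = 0.000916), and PLIN2 (chr9:19108373-19149288), a lipid droplet protein, was 44.2 and 46.3 and 3.66 and 6.05 (-3.01 ± 0.24, adjusted p = 1.62e-06), both higher in Reh. RPS6 (chr9:19375713-19380234) was 4127 and 4081 FPKM in Reh and 3119.6 and 4613 in Namalwa, HAUS6 was 32.8 and 33.8 and 24.7 and 30.4, and neither was called. CDKN2A and CDKN2B-AS1 overlap on opposite strands and the strand setting of the counting is not given in the sources used here.

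Genes of the BCL2 family and apoptosis gave 6 calls higher in Namalwa (23.1%, against 9.36% of all tested genes) and 7 in Reh (26.9%, against 14.1%) of 26 tested. BCL2, the survival gene that germinal centre cells switch off, was 50.3 and 45.6 FPKM in Reh and 3.28 and 3.52 in Namalwa (-3.47 ± 0.26, adjusted p = 9.43e-07). BIRC3, an NF-kappaB-driven inhibitor of apoptosis, was 67.6 and 43.7 FPKM in Namalwa and 0.348 and 0.122 in Reh (5.49 ± 0.27, adjusted p = 4.52e-08). HRK, a death-promoting BH3 protein, was 23 and 18.7 against 0.582 and 0.315 (3.91 ± 0.21, adjusted p = 6.42e-08) and PMAIP1, or NOXA, was 65 and 32.2 against 12.3 and 9.14 (2.01 ± 0.36, adjusted p = 0.00104). BCL2A1, a survival gene, was 2.29 and 5.07 FPKM in Namalwa and 0 and 0.149 in Reh. On the Reh side DAPK2, a death-associated kinase, was 4.86 and 2.95 FPKM against 0.0415 and 0.0943, CASP10, an initiator caspase, was 6.29 and 4.65 against 0.356 and 0.717 and BCL2L2, a survival gene, was 3.74 and 3.76 against 0.694 and 0.41. Survival and death genes were called in both directions, with 2 and 2 of 9 survival genes and 4 and 5 of 17 death genes higher in Namalwa and in Reh. With a filter of 5 FPKM 3 members were higher in Reh.

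**Figure D3:**
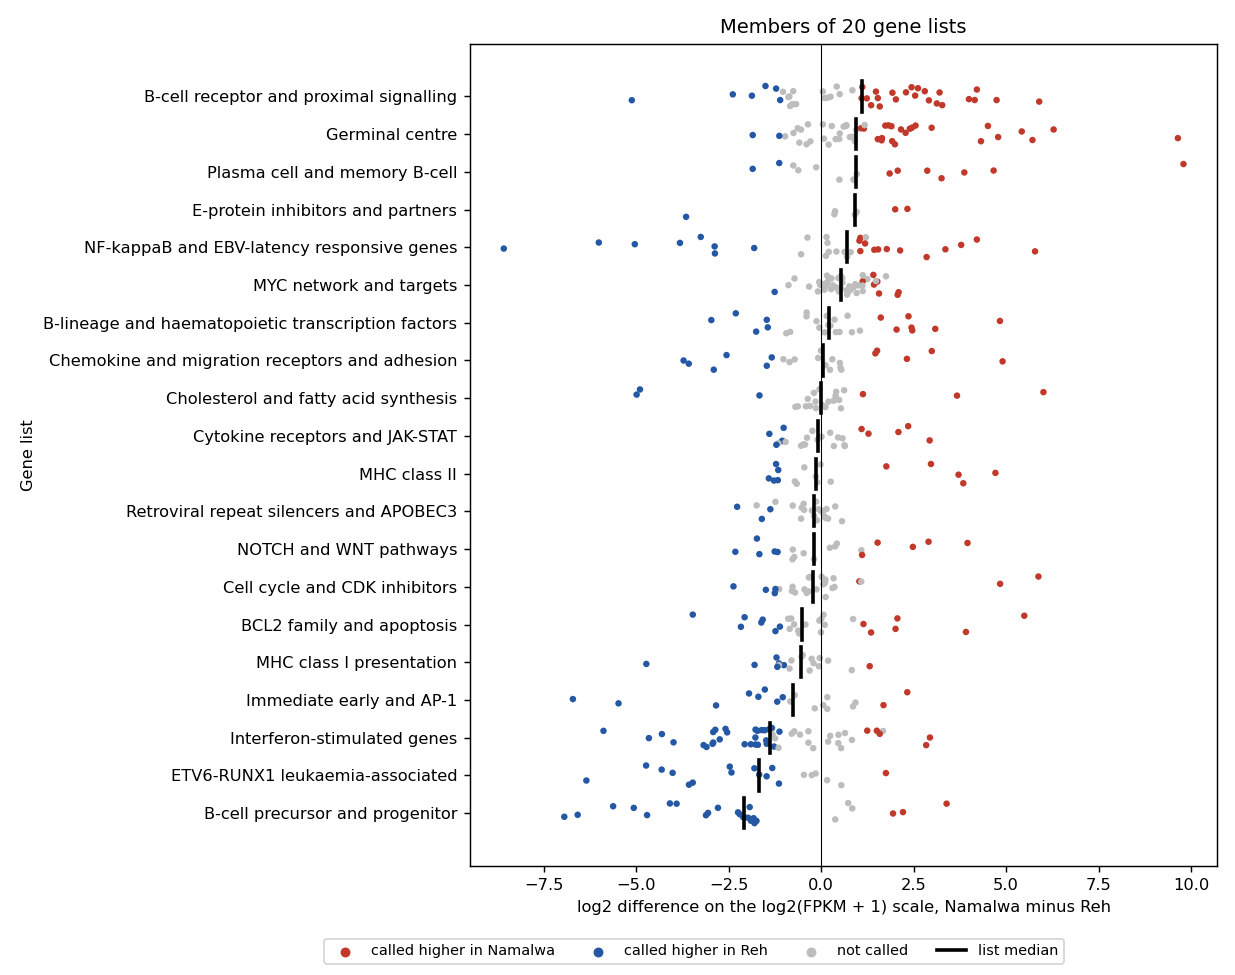
Differences (x axis, log2(FPKM + 1) scale, Namalwa minus Reh) of the tested members of 20 gene lists, 1 point a gene, ordered by the list median (black bar). The B-cell receptor list has a median of 1.10 and the germinal centre list 0.95, and the precursor list lies lowest at -2.09, next to the ETV6-RUNX1 list at -1.68 and the interferon list at -1.38.

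MHC class II genes, which present antigen to helper T cells, split within the family. Of 13 molecules tested 5 were higher in Namalwa and 5 in Reh (38.5% each, against 9.36% and 14.1% of all tested genes), and none of 4 regulators was called. HLA-DQA1 was 22 and 28.9 FPKM in Namalwa and listed at 0 in both Reh libraries (adjusted p = 5.04e-06). HLA-DQB1 was 14.6 and 22.3 against 0.556 and 0.355 (3.71 ± 0.72, adjusted p = 0.00385), HLA-DRB5 was 46.3 and 78 against 2.87 and 3.7 (3.84 ± 0.72, adjusted p = 0.00313) and HLA-DQA2 was 6.25 and 8.32 against 0.104 and 0 (2.97 ± 0.53, adjusted p = 0.00143). HLA-DRA, the shared DR alpha chain, was 809 and 961 FPKM in Reh and 247 and 439 in Namalwa (-1.42 ± 0.46, adjusted p = 0.0372). HLA-DPA1 was 209 and 284 against 76.2 and 130.5, HLA-DMA was 46.9 and 55.8 against 15.2 and 29.9 and HLA-DPB1 was 21.6 and 24.1 against 8.83 and 10.3. The Reh side of this split was fragile. The number of members higher in Reh was 1 without the Namalwa library with the lower sum, 2 without the Reh library with the lower sum and 1 without the other Reh library, whereas 5 were higher in Namalwa in each of these fits. CD74, the invariant chain, was 691 and 708 FPKM in Namalwa and 703 and 716 in Reh. HLA genes vary between people and have near-identical copies, so reads can be lost or shared and the FPKM of single HLA genes are uncertain.

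Of 19 tested genes of MHC class I presentation 6 (31.6%, against 14.1% of all tested genes) were higher in Reh and 1 (5.3%, against 9.36%) in Namalwa. HLA-F, a non-classical class I gene, was 25.5 and 25.6 FPKM in Reh and listed at 0 in both Namalwa libraries (adjusted p = 5.83e-08), and HLA-E was 89.9 and 78.5 against 25.1 and 21.8 (-1.80 ± 0.29, adjusted p = 0.000451). The same uncertainty holds for both. Of the class I genes that present peptides to killer T cells, HLA-B and HLA-C were not called. HLA-B was 367 and 476 FPKM in Namalwa and 409 and 452 in Reh and HLA-C was 177 and 222 and 106 and 118. NLRC5, the activator of class I genes, was 13.1 and 12.1 FPKM in Namalwa and 4.45 and 4.48 in Reh (1.31 ± 0.28, adjusted p = 0.00339). The immunoproteasome subunit PSMB8 was 137 and 207 FPKM in Reh and 54.3 and 95.8 in Namalwa and the peptidase ERAP2 39.3 and 52.1 and 16.7 and 22.3. Both calls were lost without the Namalwa library with the lower sum or the Reh library with the higher sum, and the count of genes higher in Reh was then 3 and 2.

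Genes that respond to NF-kappaB or to latent Epstein-Barr virus went both ways, with 13 of 33 tested (39.4%, against 9.36% of all tested genes) higher in Namalwa and 8 (24.2%, against 14.1%) in Reh. RELB, a subunit of the non-canonical pathway, was 32.5 and 19 FPKM in Namalwa and 2.13 and 1.04 in Reh (3.36 ± 0.35, adjusted p = 1.53e-05). SLAMF6, a lymphocyte adhesion receptor, was 57.6 and 55.4 against 0.091 and 0 (5.78 ± 0.18, adjusted p = 1.71e-09). DUSP2, a phosphatase of MAP kinases, at 11.4 and 26.6 FPKM in Namalwa, and CCL3, a chemokine, at 7.54 and 21.2, were listed at 0 in Reh. Of the 14 subunits and inhibitors of the pathway tested 4 were higher in Namalwa (28.6%, against 9.36%) and 2 in Reh (14.3%, near the 14.1% of all tested genes). The 2 were TNFAIP3 and NFKBIA. TNFAIP3, or A20, which switches NF-kappaB off, was 95.2 and 73.8 FPKM in Reh and 2.12 and 1.13 in Namalwa (-5.04 ± 0.45, adjusted p = 5.89e-06), and NFKBIA, the inhibitor IkappaB-alpha, was 67.5 and 77.3 against 19.1 and 20.6 (-1.81 ± 0.28, adjusted p = 0.000367). TNF, the cytokine, was 67.7 and 111 FPKM in Reh and 0.407 and 0.309 in Namalwa (-6.02 ± 0.32, adjusted p = 7.1e-08). FSCN1, the actin bundler fascin, was 15.3 and 14.4 against 0.116 and 0.132 (-3.82 ± 0.32, adjusted p = 2.67e-06), and in the cHL lines it lay at 78.3 to 687 FPKM. VIM, the intermediate filament vimentin, was 469 and 423 FPKM in Reh and 0.207 and 0.118 in Namalwa (-8.59 ± 0.40, adjusted p = 2.84e-08), while the 6 cHL libraries lay between 420.2 and 1529 FPKM. With 1 library left out at a time 9 or 10 members were higher in Namalwa and 8 in Reh, and with a filter of 5 FPKM 8 were higher in Namalwa.

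Interferon-stimulated genes encode antiviral proteins and were more often higher in Reh than in Namalwa. Of 50 tested genes 28 were higher in Reh (56.0%, against 14.1% of all tested genes) and 5 in Namalwa (10%, against 9.36%), with a median difference of -1.38. LGALS3BP, a secreted galectin-binding protein, was 70.8 and 80.2 FPKM in Reh and 0.244 and 0.333 in Namalwa (-5.89 ± 0.27, adjusted p = 2.5e-08). HERC5, the ligase for the ubiquitin-like protein ISG15, was 24.3 and 24.4 FPKM in Reh and listed at 0 in Namalwa (adjusted p = 1.47e-07). GBP1, a guanylate-binding protein, was 16.6 and 23.9 against 0.0707 and 0.0402 (-4.31 ± 0.32, adjusted p = 8.97e-07), and OAS3, a sensor of double-stranded RNA, was 15.8 and 15.5 against 0.0944 and 0 (-3.99 ± 0.25, adjusted p = 2.3e-07). DDX60, a helicase, was 7.84 and 9.39 FPKM in Reh and 0.0345 and 0.0783 in Namalwa. Not every antiviral gene followed: MX1, a GTPase against viruses, was 10.6 and 30.7 FPKM in Namalwa and 11 and 13.6 in Reh and was not called. With 1 library left out at a time 21 to 26 members were higher in Reh.

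The 5 interferon-stimulated genes that were higher in Namalwa were ISG20, IFI16, IFI30, EPSTI1 and OAS2. ISG20, an exonuclease, was 20.5 and 26 FPKM in Namalwa and 1.99 and 2.3 in Reh (2.94 ± 0.34, adjusted p = 3.93e-05), and IFI16, a DNA sensor, was 114 and 61.3 against 12 and 9.78 (2.84 ± 0.33, adjusted p = 3.46e-05). OAS2 was 24.2 and 24.2 against 8.65 and 10.7 (a call lost without the Reh library with the lower sum), so the neighbouring family members OAS2 and OAS3 were called in opposite directions. IFI30, a lysosomal thiol reductase, at 78 and 135 against 27.7 and 40.7 FPKM, and EPSTI1, at 2.16 and 3.78 against 0.55 and 0.209, lost their calls without the Namalwa library with the higher sum, leaving 3 members higher in Namalwa. That number was also 3 without the Reh library with the lower sum. Of the receptor chains for type I interferon, IFNAR2 was 19.5 and 15 FPKM in Namalwa and 3.37 and 3.15 in Reh (2.09 ± 0.27, adjusted p = 7.79e-05), the reverse of most of the stimulated genes.

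Interferon-stimulated genes are known to carry the interferon-stimulated response element near their start sites, so the 250 bases before each start were searched on both strands for its core, which reads GAAA, any 2 bases, GAAA. RefSeq promoters on GRCh38.p14 were found for 41 genes of the list, and 21 of them held the core (51.22%), against 839 of all 27305 promoters (3.07%). It was present in 14 of 23 members higher in Reh and in 7 of 18 other members. A match is a description and not a shown site. The windows below were chosen from called members whose 250 bases held the core, so they cannot show how common it is in either direction. Each is 90 bases, 5′ to 3′ on the gene's strand, with the matches in capitals (for HERC5 and GBP1 the core reads on the other strand). The first 5 genes were higher in Reh and ISG20 and EPSTI1 in Namalwa.
LGALS3BP (chr17:78979932-78980021, minus strand): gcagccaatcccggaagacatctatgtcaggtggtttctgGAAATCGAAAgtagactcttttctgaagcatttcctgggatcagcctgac
HERC5 (chr4:88457005-88457094, plus strand): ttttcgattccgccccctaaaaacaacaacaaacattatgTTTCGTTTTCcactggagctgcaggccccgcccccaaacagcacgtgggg
GBP1 (chr1:89065286-89065375, minus strand): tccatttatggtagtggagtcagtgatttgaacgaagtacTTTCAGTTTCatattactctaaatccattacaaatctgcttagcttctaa
OAS3 (chr12:112938384-112938473, plus strand): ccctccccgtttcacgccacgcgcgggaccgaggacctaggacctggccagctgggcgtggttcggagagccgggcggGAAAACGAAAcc
DDX60 (chr4:168318756-168318845, minus strand): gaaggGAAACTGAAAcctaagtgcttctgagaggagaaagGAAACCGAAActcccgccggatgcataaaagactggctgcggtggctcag
ISG20 (chr15:88638907-88638996, plus strand): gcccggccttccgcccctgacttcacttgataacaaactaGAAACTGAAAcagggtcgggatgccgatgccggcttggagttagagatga
EPSTI1 (chr13:42992242-42992331, minus strand): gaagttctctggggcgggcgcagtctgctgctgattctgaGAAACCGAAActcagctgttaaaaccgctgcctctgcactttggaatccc

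The match nearest the annotated start began 12 bases before it in OAS3 and 127 bases before it in GBP1, and those of the other printed genes lay between these values. OAS3 and DDX60 each held 2 matches in their 250 bases and HERC5 held 3. Over all tested genes with a promoter the core was found in 2.42% of those higher in Namalwa and 3.38% of those higher in Reh. The octamer ATGCAAAT, bound by POU2F2, was in 1.82% of promoters of genes higher in Namalwa and 1.48% of those higher in Reh, and the E-box CACGTG, bound by MYC with MAX, was in 9.56% and 7.34%. Among all tested genes with a promoter the shares were 2.48% for the interferon core, 1.21% for the octamer and 9.17% for the E-box, and among all promoters 1.66% held the octamer and 6.49% the E-box.

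Cytokine receptors and JAK-STAT genes gave 5 calls in each direction of 25 tested (20%, against 9.36% and 14.1% of all tested genes). IL10RA, a chain of the interleukin 10 receptor, was 6.18 and 7.12 FPKM in Namalwa and listed at 0 in Reh (adjusted p = 7.45e-06), and PIM2, a survival kinase, was 53.5 and 48.2 against 10.1 and 8.25 (2.35 ± 0.29, adjusted p = 6.66e-05). IL2RG, the common gamma chain that IL7R pairs with, was 29.3 and 26.5 FPKM in Reh and 11.2 and 8.79 in Namalwa (-1.40 ± 0.31, adjusted p = 0.00425). JAK2, IL6ST, CSF2RB and STAT5A were called higher in Reh but each lost its call without the Namalwa library with the higher sum, leaving 1 member higher in Reh. With a filter of 5 FPKM 3 members were higher in Namalwa and 2 in Reh. Among migration and adhesion genes 5 of 22 tested were higher in Namalwa (22.7%, against 9.36%) and 6 in Reh (27.3%, against 14.1%). CD48, a ligand on activated B cells, was 89.2 and 164 FPKM in Namalwa and 2.84 and 3.31 in Reh (4.91 ± 0.47, adjusted p = 1.12e-05), and P2RY10, a lysophospholipid receptor, was 6.23 and 7.73 with Reh at 0. ITGA4, which holds precursors to bone marrow stroma, was 85 and 92.5 FPKM in Reh and 12.7 and 15.8 in Namalwa (-2.56 ± 0.22, adjusted p = 3.09e-06), and ITGA5 was 13.6 and 9.97 against 0.998 and 0.425. ICAM3, higher in Namalwa, lost its call in all 4 leave-one-out fits and S1PR1 in 3 of them, and 3 or 4 members were then higher in Namalwa.

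In the NOTCH and WNT pathways 5 of 19 tested genes were higher in each line (26.3%, against 9.36% of all tested genes for Namalwa and 14.1% for Reh). With a filter of 5 FPKM 3 were higher in Namalwa and 0 in Reh. ROR1, a receptor for WNT5A, was 19.5 and 10.8 FPKM in Namalwa and listed at 0 in Reh (adjusted p = 1.39e-07), and DTX1, a regulator and target of NOTCH, was 115 and 79.7 against 16.4 and 8.66 (2.90 ± 0.30, adjusted p = 1.38e-05). WNT5B, a ligand, was 4.25 and 5.53 against 0.0507 and 0.0516. In Reh the WNT receptor FZD8 was 3.62 and 5.01 FPKM against 0.0675 and 0.0384 (-2.32 ± 0.22, adjusted p = 7.48e-06), and the NOTCH ligands DLL1, at 2.27 and 2.4, and DLL4, at 2.7 and 1.75, were listed at 0 in Namalwa. Of 18 tested immediate early genes and their feedback inhibitors 8 (44.4%, against 14.1% of all tested genes) were higher in Reh and 2 (11.1%, against 9.36%) in Namalwa, and with a filter of 5 FPKM these counts were 4 and 0. DUSP6, the phosphatase that ends ERK signals, was 98.9 and 128 FPKM in Reh and 0.0365 and 0.125 in Namalwa (-6.72 ± 0.36, adjusted p = 7.73e-08), and DUSP1 was 208 and 153 against 2.97 and 3.07 (-5.48 ± 0.54, adjusted p = 2.05e-05). SPRY2, another ERK inhibitor, was 5.47 and 6.97 FPKM with Namalwa at 0. NR4A1, an orphan nuclear receptor induced by receptor signals, was 8.15 and 4.59 FPKM in Namalwa and 0.605 and 0.264 in Reh (2.33 ± 0.44, adjusted p = 0.00156).

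Of 18 tested silencers of retroviral repeats 1 was called (5.6%, against 23.4% of all tested genes in either direction). It was DNMT3A, a DNA methyltransferase, at 12.9 and 14.4 FPKM in Reh and 5.07 and 4.22 in Namalwa (-1.38 ± 0.22, adjusted p = 0.000519). TRIM28, the corepressor of zinc finger proteins, was 139.9 and 204 FPKM in Namalwa and 224 and 247 in Reh, and SETDB1, its histone methyltransferase, was 29.9 and 34.1 and 35.3 and 32.5. Neither was called, with differences of -0.48 ± 0.34, adjusted p = 0.346 for TRIM28 and -0.08 ± 0.23, adjusted p = 0.848 for SETDB1. Of the APOBEC3 cytidine deaminases, which restrict retroviruses, APOBEC3H was 3.39 and 4.34 FPKM in Reh and listed at 0 in Namalwa (adjusted p = 3.94e-05). APOBEC3G was 14.9 and 18.9 against 5.4 and 4.33, and its call was lost without the higher-sum library of either line (adjusted p = 0.0514 and 0.0598). These genes have near-identical copies, so reads can be shared among them.

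Fatty acid desaturases differed in opposite directions, although cholesterol and fatty acid genes gave 3 calls on each side of 24 tested (12.5%, against 9.36% and 14.1% of all tested genes). SCD, which makes monounsaturated fatty acids, was 58.8 and 69.8 FPKM in Namalwa and 0.0192 and 0 in Reh (6.01 ± 0.33, adjusted p = 8.1e-08). FADS1 and FADS2, which make polyunsaturated fatty acids, were 49.6 and 36.7 and 131 and 91.3 FPKM in Reh against 0.79 and 0.19 and 3.11 and 1.91 in Namalwa (-4.90 ± 0.25, adjusted p = 5.91e-08 for FADS1 and -4.99 ± 0.26, adjusted p = 5.95e-08 for FADS2). None of 18 housekeeping genes was called, and their median difference was 0.20.

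The largest differences of all included several genes outside these groups. UCHL1, a ubiquitin hydrolase of neurons and germinal centre cells, was 346 and 599 FPKM in Namalwa and listed at 0 in both Reh libraries and in all 6 cHL libraries (adjusted p = 9.4e-10). BMP7, a growth factor of the bone morphogenetic protein family, was 68.7 and 75.6 FPKM in Namalwa and listed at 0 in Reh (adjusted p = 9.4e-10). TAGLN2, an actin-binding protein, was 306 and 367 FPKM in Namalwa and 0.169 and 0.173 in Reh (8.16 ± 0.27, adjusted p = 2.37e-09), with the cHL lines at 216 to 439.7 FPKM. LSP1, a leucocyte cytoskeletal protein, was 127 and 126 FPKM with Reh at 0. IGLL5, which overlaps the immunoglobulin lambda locus and shares sequence with its constant genes, was 289 and 281 FPKM in Namalwa and listed at 0 in Reh (adjusted p = 4.21e-10). BCAT1, which breaks down branched-chain amino acids, was 131 and 83 against 0.0112 and 0, and PYCR1, the last enzyme of proline synthesis, was 80.4 and 108 against 0.0623 and 0.

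On the Reh side MDK, the heparin-binding growth factor midkine, was 301 and 336 FPKM against 0.487 and 0.348 in Namalwa (-7.82 ± 0.26, adjusted p = 2.37e-09). MDFI, an inhibitor of MyoD family factors, was 153 and 163 FPKM and NRIP1, a nuclear receptor corepressor, was 151 and 146. EGFL7, a secreted factor of blood vessels and progenitors whose gene hosts miR-126, was 91.3 and 90.05 FPKM. All 3 were listed at 0 in both Namalwa libraries, with adjusted p = 1.71e-09 for MDFI, adjusted p = 1.34e-08 for NRIP1 and adjusted p = 1.71e-09 for EGFL7. GNA15, a G protein subunit of blood cells, was 107 and 127 FPKM in Reh and 0.144 and 0.109 in Namalwa (-6.71 ± 0.26, adjusted p = 6.67e-09).

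**Figure D4:**
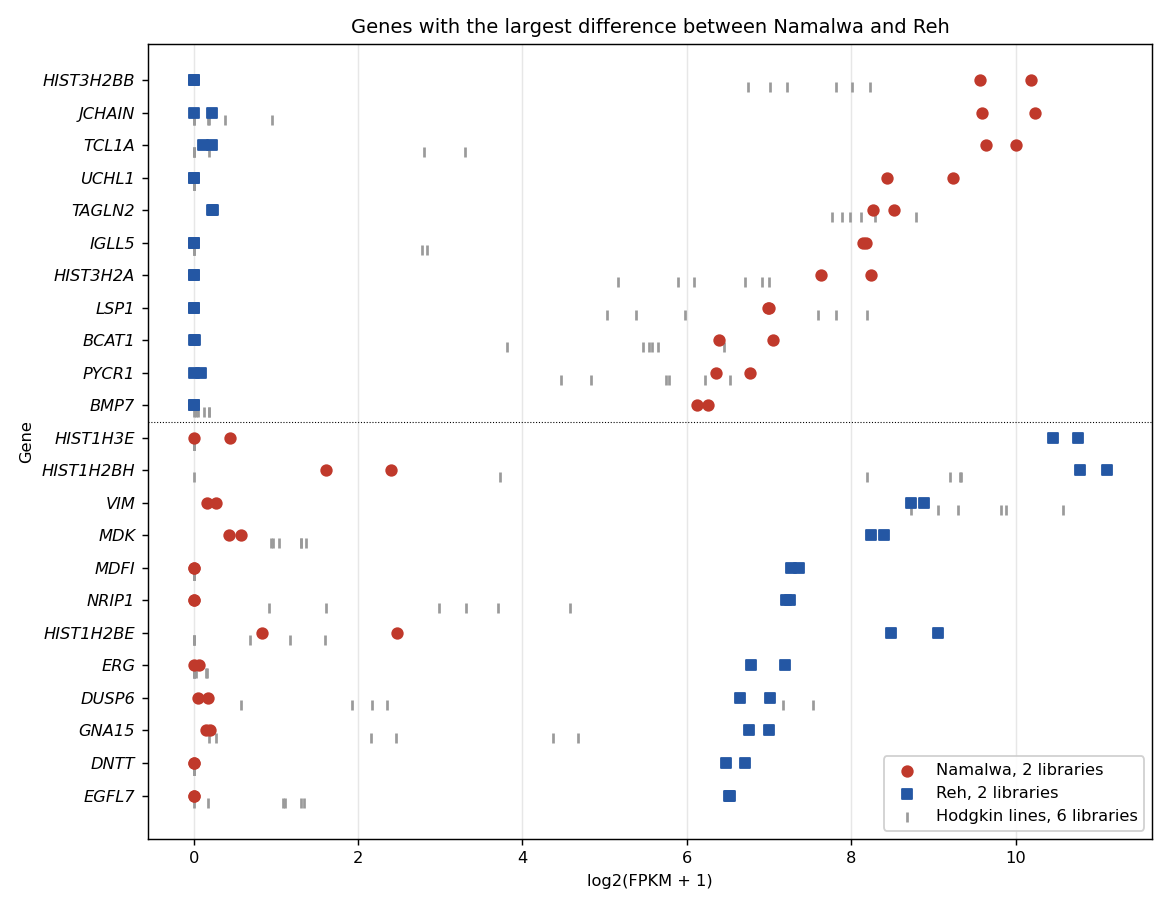
Log2(FPKM + 1) (x axis) of genes among the 12 with the largest differences in each direction, in the 2 Namalwa libraries (red circles), the 2 Reh libraries (blue squares) and the 6 libraries of the cHL lines (grey ticks). These genes were picked for the size of the difference, so the lack of overlap of red and blue points follows from the choice. TAGLN2, LSP1 and VIM have grey ticks near the higher line while UCHL1, MDFI and DNTT have them at 0.

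Histone genes made up 5 of the genes with the largest differences. HIST3H2BB was 754 and 1162 FPKM in Namalwa and HIST3H2A was 197 and 300.5, and both were listed at 0 in both Reh libraries. HIST1H3E was 1725 and 1399.6 FPKM in Reh and 0.356 and 0 in Namalwa (-10.38 ± 0.24, adjusted p = 4.21e-10), HIST1H2BH was 2202 and 1757 against 2.04 and 4.28 (-8.94 ± 0.98, adjusted p = 0.000125) and HIST1H2BE was 532 and 355 against 0.786 and 4.57. The whole family was then counted, after these values were seen. Of 67 tested histone genes 3 were higher in Namalwa (4.5%, against 9.36% of all tested genes) and 9 in Reh (13.4%, against 14.1%), with 0 and 9 of 52 in the HIST1 cluster and 2 and 0 of 2 in the HIST3 cluster. Of the 67 genes 55 were not called. Replication-dependent histone transcripts lack poly(A) tails and are kept by total RNA libraries. The genes are near-identical, so reads can be shared among them.

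The differences were spread unevenly over the chromosomes. Positions on hg19 were found for 11031 tested genes (90.9%). Chromosome 7 had a median difference of 0.50, with 107 of 542 genes higher in Namalwa (19.7%, against 9.36% of all tested genes) and 59 in Reh (10.9%, against 14.1%). Chromosome 14 had a median of -0.42, with 19 of 361 higher in Namalwa (5.3%) and 95 in Reh (26.3%). Chromosome 17 had -0.18, with 35 of 677 (5.2%) and 132 (19.5%). The medians of the other chromosomes lay between -0.17 and 0.18. Within chromosome 17 the shift was on the short arm side: the window chr17:10000001-20000000 had a median of -1.0 over 57 genes, of which 28 were higher in Reh and 1 in Namalwa, and chr17:1-10000000 had -0.74 over 128 genes, with 41 and 2. Of 204 windows of 10 Mb with at least 20 tested genes, 21 had a median beyond 0.5 in either direction. The highest was 0.81, on chromosome 7. These medians are descriptions over neighbouring genes, which are not independent, and DNA copy number was not analysed here.

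**Figure D5:**
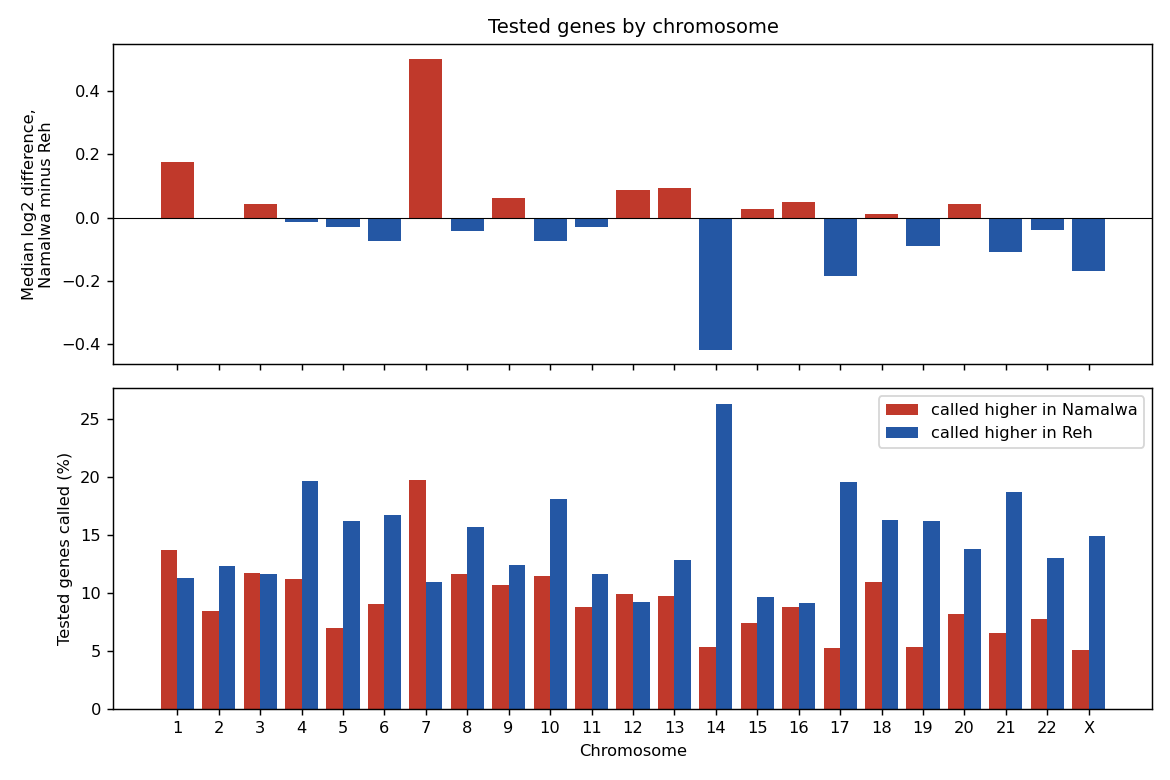
Median difference of tested genes by chromosome (upper panel, log2 scale, Namalwa minus Reh) and the percentage of tested genes called in each direction (lower panel; red higher in Namalwa, blue higher in Reh). Chromosome 7 stands highest at 0.50 and chromosome 14 lowest at -0.42, with 26.3% of its genes higher in Reh, against 14.1% of all tested genes.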

How the data were processed

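The authors sequenced total RNA depleted of ribosomal RNA (Ribo-Zero, stranded TruSeq libraries), with 2 libraries in each of 6 groups. The submitters' processing notes name TopHat2 2.0.11 and Cuffnorm 2.2.1, and the authors deposited 1 table of FPKM per gene and library. Depth, the Cuffnorm normalization mode, strand setting and gene annotation version are not given in the sources used here. Namalwa minus Reh was tested here with limma 3.58.1 (R 4.3.3) on log2(FPKM + 1), with trend and robust variance, all 12 libraries sharing the estimate of the spread and Benjamini-Hochberg adjustment over the 12135 genes with at least 1 FPKM in at least 2 of the 4 libraries. Such a filter passes a gene that is high in only 1 line. The fit was tested on simulated data. Promoters were RefSeq sequences of GRCh38.p14.

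Gene lists (23 lists, 716 genes) and the groups were chosen with earlier results of these data known. The text names the 12 genes with the largest called difference in each direction, up to 4 called members of each list and direction, and members that define a list by role. Other genes named, such as SYK, OAS2 and ETV6, were chosen after their values were seen. The columns are numbered 0 and 1, which are not the labels' replicate numbers, so a library is told apart by its summed FPKM. The alternatives were another pseudocount, other filters, scalings, variance settings and call rules, a replicate block, and leaving out each library. Some genes that the rule names are not reported here, though counts over lists and over all tested genes include them.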

Additional observations from a re-analysis of the deposited data

How the results depend on the processing

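Over 15 alternative settings no called gene that was followed changed direction. With a filter of 5 FPKM, which tested 9008 genes, 1807 genes were called and 1023 were higher in Reh. The other settings kept the counts within 1.5 times. Leaving out each library in turn gave 2383 to 2700 calls, 930 to 1126 higher in Namalwa and 1453 to 1574 higher in Reh, where the lone library of a line is assumed to vary like the other groups. Quantile normalization moved the split to 1379 higher in Namalwa and 1507 in Reh. With the column number as a replicate block 1184 genes were higher in Namalwa and 1730 in Reh. The labels do not say that a number marks a shared culture or day. Deviations of same-numbered libraries correlated with 0.411 between Namalwa and Reh, and with -0.0344 to 0.686 over 15 pairs of groups, of which 8 were over 0.1, and the numbers were not taken to pair the samples. Of 299 called genes followed, 225 were called in every alternative that tested them. Of 690 list counts 44 moved by more than 1.5 times. The unknown depth limits what can be said of genes near 0.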

Other observations

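The following genes stand in no list and were chosen after their values were seen, so they mark no group. CBS, which makes cystathionine from homocysteine, was 27.8 and 27.4 FPKM in Namalwa and 0 and 0.0865 in Reh (4.78 ± 0.17, adjusted p = 4e-09 on the log2 scale, limma). SORD, the sorbitol dehydrogenase, was 44.2 and 71.3 against 0.0386 and 0 (5.81 ± 0.34, adjusted p = 1.47e-07). ASNS, the asparagine synthetase, was 168 and 74.2 against 30.8 and 14.3 (2.35 ± 0.55, adjusted p = 0.00762), and PSAT1, an enzyme of serine synthesis, was 96.7 and 47.8 against 29.5 and 19.2 (1.48 ± 0.41, adjusted p = 0.0169). PHGDH, the first enzyme of the same pathway, was 128 and 122 FPKM in Namalwa and 155 and 131 in Reh and was not called. LIN28B, a fetal RNA-binding protein that blocks let-7 microRNAs, was 29.96 and 30.2 FPKM in Namalwa and listed at 0 in both Reh libraries (adjusted p = 2.37e-09). LGALS1, the lectin galectin-1, was 36.7 and 20.7 FPKM in Reh and 0.533 and 3.68 in Namalwa (-3.42 ± 0.63, adjusted p = 0.00176).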
